A study of Mus musculus with 9 samples.

Results

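ciXEN cells are cells that resemble extraembryonic endoderm (XEN) stem cells and that were induced chemically, with basic fibroblast growth factor (bFGF) but no added transcription factor gene, from mouse embryonic fibroblasts (MEFs). The comparison described here set ciXEN cells at passage 30 against the MEFs, and its members were taken by their labels alone. They are the 3 ciXEN libraries labelled passage 30, from lines 1-1, 2-1 and 3-3, and the 3 MEF libraries, labelled passage 3. These are 6 of the 9 RNA sequencing libraries of the study. The other 3 are the same lines at passage 5, which entered the fit for its estimate of spread and a test of where passage 30 differed from passage 5. Both cell types were of the CF-1 mouse strain. Per the methods of the study, MEFs were grown in high-glucose DMEM with foetal bovine serum. ciXEN lines grew out of clones picked by hand and were kept on Matrigel in KnockOut DMEM with knockout serum replacement, serum and bFGF. Their medium also held VPA (a histone deacetylase inhibitor), CHIR99021 (a GSK3 inhibitor), RepSox (an inhibitor of the type I TGF-β receptor), Parnate (an inhibitor of the histone demethylase LSD1), forskolin (an activator of adenylyl cyclase), AM580 (an agonist of retinoic acid receptor alpha) and EPZ004777 (an inhibitor of the histone methyltransferase DOT1L). MEFs had none of these, so cell identity, medium, substrate and passage number cannot be told apart in what follows. The labels do not say whether the 3 MEF libraries came from separate embryos or cultures, so p-values measure the spread between these libraries.

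As background, the primitive endoderm is the epithelial layer of the blastocyst that faces the cavity and gives rise to the visceral and parietal endoderm of the yolk sacs. XEN cells are its stem cell counterpart in culture, and are known by GATA4, GATA6, SOX17 and SOX7. They also make laminin and type IV collagen for basement membranes. Fibroblasts are mesenchymal cells known for interstitial collagens, the enzymes that crosslink them, and actin stress fibres.

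Expression was measured as FPKM, the fragments assigned to a transcript per kilobase of its length and scaled to the total of mapped fragments. The level of a gene is the sum of FPKM over its transcripts. Of 13787 such genes, the 12443 that averaged 0.5 FPKM or more across the 9 libraries were tested. A gene near 0 in MEFs met this level only through its ciXEN values, so it could hardly fall. A gene near 0 in ciXEN cells could likewise hardly rise. Most genes of the visceral and definitive endoderm, hepatic, trophoblast, pluripotency, endothelial and epithelial lists below were under 1 FPKM in every MEF library. The same held for the list of endodermal and epithelial factors. Conversely, most genes of the fibroblast, fibrillar matrix, secreted ligand, interferon and macrophage lists were under 1 FPKM in every passage 30 library. A log2 difference below is the mean of log2(FPKM + 1) at passage 30 minus that in MEFs, given with its standard error and with limma's p adjusted over all tested genes. Library values are listed in the order of MEF replicates 1, 2 and 3 and of lines 1-1, 2-1 and 3-3. The deposited values summed to between 314895 and 341556 FPKM per library, and 10593 to 11130 genes reached 1 FPKM. Depth is unknown, since read counts could not be rebuilt. MEF replicates 1 and 3 stood apart in 1 respect: over 29 genes very high in ciXEN cells they held a median of 0.667% and 0.758% of the ciXEN level, against 0.0850% in MEF replicate 2. What brought this trace there was not tested, and it raises the low end of MEF values for genes described below as risen.

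Passage 30 and MEFs differed at most genes. Of the 12443 genes, 4749 rose (38.2%) and 3309 fell (26.6%) in ciXEN cells at passage 30, and the other 4385 did not pass an adjusted p of 0.05. The 3 libraries of each group did not overlap at 69.8% of the genes. Over all tested genes the median log2 difference was 0.17, the value against which the medians of gene groups are read below. Counts of rises and falls in a gene group are likewise read against 38.2% and 26.6%. Large changes lay more often on the falling side, with 259 falls against 117 rises of at least 16-fold, and 61 falls against 26 rises of at least 64-fold. The trace of ciXEN signal in MEF replicates 1 and 3 makes large rises smaller and hardly touches falls. These fold counts were not repeated without it. By level, 201 genes were at 5 FPKM or more in every passage 30 library and below 1 FPKM in every MEF library, and 379 genes showed the opposite pattern. With MEF replicates 1 and 3 left out, so that MEF replicate 2 stood alone and its spread was taken from the other groups, 3454 genes rose and 2437 fell.

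**Figure D1:**
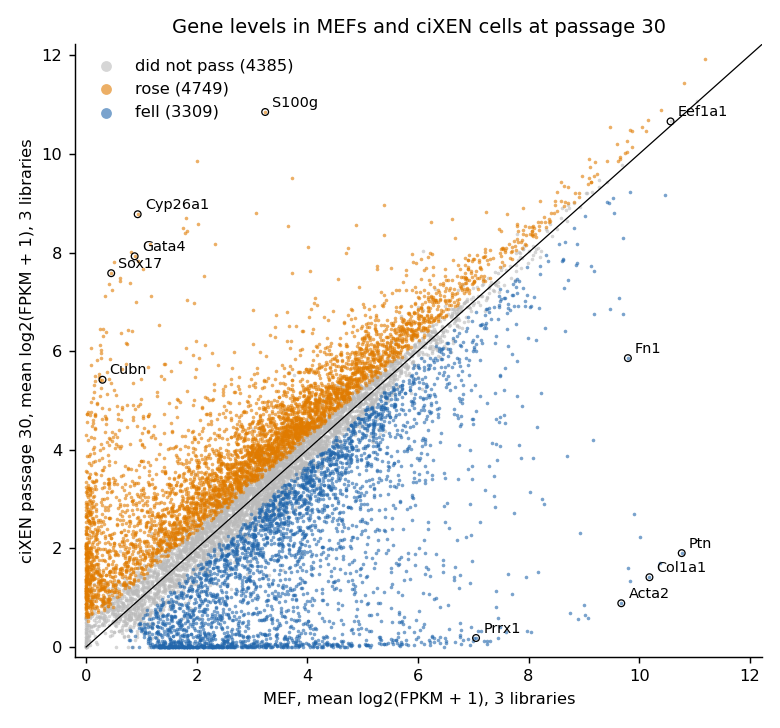
Each point is 1 of the 12443 tested genes, with the mean log2(FPKM + 1) of the 3 MEF libraries on the x axis and of the 3 passage 30 libraries on the y axis. Orange points rose (4749) and blue points fell (3309) at an adjusted p of 0.05, and grey points did not pass. The diagonal marks equal levels, and the falls reach farther from it than the rises. MEF values include the trace of ciXEN signal, which shortens large rises.

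The most abundant mRNAs changed in part only. Of the 10 genes with the highest mean, 5 were mitochondrially encoded in MEFs and 7 in the ciXEN cells, led there by mt-Co1, a subunit of cytochrome c oxidase, at 3858, 3985 and 3857 FPKM against 2277, 2239 and 2514 FPKM in MEFs. Eef1a1, the translation elongation factor, was among the 10 in both groups, at 1421, 1487 and 1652 FPKM in MEFs and 1730.3, 1674 and 1457 FPKM at passage 30, and did not pass the test (log2 difference 0.09 ± 0.09, adjusted p = 0.40). S100g, which encodes the calcium-binding protein calbindin-D9k, held 19.7, 0.512 and 25.8 FPKM in MEFs and 1650.4, 1575 and 2416 FPKM at passage 30. It thus stood among the 10 most abundant genes of the ciXEN cells. Ptn, the secreted growth factor pleiotrophin, took the opposite place, with 1609, 1680.5 and 1964 FPKM in MEFs and 2.41, 2.96 and 2.87 FPKM at passage 30. The Ptn difference of -8.87 ± 0.13 on the log2 scale was the deepest fall among genes that averaged 5 FPKM or more in either group, predicted genes aside (adjusted p = 3.2e-10).

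The labels were checked against markers of each cell type. All 9 MEF markers (Thy1, Prrx1, Pdgfrb, Col1a1, Col1a2, Twist2, Dcn, Lum and Postn) fell at passage 30, and all 9 XEN markers (Gata4, Gata6, Sox17, Sox7, Foxa2, Pdgfra, Lama1, Dab2 and Sall4) rose. On a wider list of 19 fibroblast genes 18 fell. Pdpn was the 1 that rose, from 34.5, 44.2 and 45.1 to 471, 456 and 575 FPKM (3.57 ± 0.14, adjusted p = 4.0e-08). Among 8 XEN genes named by the study 7 rose. Col4a1, which the study also counts as a XEN marker, did not pass. In bulk libraries fewer cells of a type and less RNA per cell cannot be told apart. Gata4, a zinc finger factor of the primitive endoderm (chr14:63198922-63271692, GRCm38, minus strand), lay at 1.27, 0.163 and 1.35 FPKM in MEFs and 191, 262 and 282 FPKM at passage 30 (log2 difference 7.05 ± 0.26, adjusted p = 2.8e-08). Sox17, which encodes an endodermal HMG-box factor, went from 0.835, 0 and 0.396 to 228, 183 and 165 FPKM (7.13 ± 0.20, adjusted p = 6.8e-09). Pdgfra, Dab2 and Gata6 were markers already present in MEFs, Gata6 at 2.77, 3.17 and 2.505 FPKM against 58.9, 54.2 and 67.6 FPKM at passage 30. Pdgfra, a receptor for platelet-derived growth factor, had 35.00, 33.9 and 44.5 FPKM there and 229.6, 152 and 233 FPKM in the ciXEN lines, while Dab2, an endocytic adaptor, had 28.4, 27.5 and 31.1 and 57.6, 31.7 and 57.8 FPKM (0.69 ± 0.20, adjusted p = 0.014). The groups of libraries did not overlap for any of these 5 genes, and the Dab2 difference, the smallest among the 9 XEN markers, no longer passed without line 1-1 or line 3-3 (adjusted p = 0.054 in both cases).

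**Figure D2:**
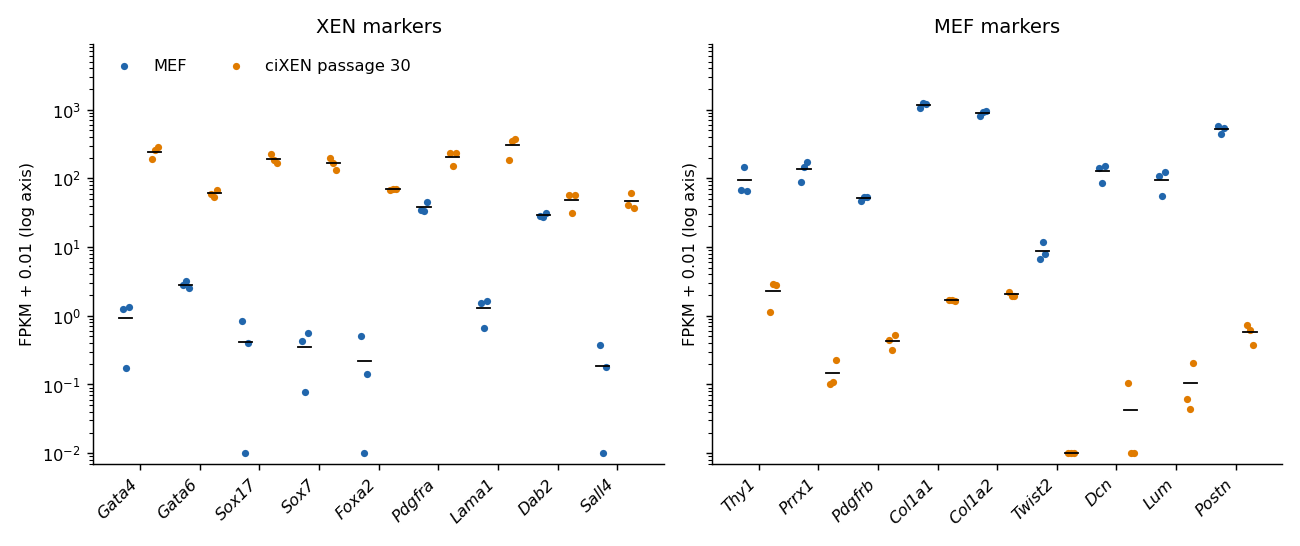
FPKM + 0.01 on a log axis for 9 XEN markers (left) and 9 MEF markers (right), with 1 point per library, blue for the 3 MEF libraries and orange for the 3 ciXEN libraries of passage 30, and a bar at each group's mean. The groups are apart for every gene shown, Dab2 and Pdgfra have the narrowest gaps on the left, and Twist2 is listed at 0 in all 3 passage 30 libraries.

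Most tested genes of the primitive endoderm and of the visceral endoderm rose. Of 17 tested primitive endoderm genes 15 rose, with a median log2 difference of 5.12. The exceptions were Col4a1, which did not pass, and Sparc, a secreted matrix glycoprotein that fell from 1407, 1416 and 1447 to 324, 723 and 805 FPKM (-1.31 ± 0.28, adjusted p = 0.0027, and 0.082 without MEF replicates 1 and 3). Among the endocytic receptors of this lineage, Cubn (cubilin) rose from 0.132, 0.187 and 0.375 to 23.7, 54.7 and 56.01 FPKM and Lrp2 (megalin) from 0.185, 0.185 and 0.225 to 64.2, 68.01 and 59.2 FPKM. Line 1-1 had the lowest Cubn value of the 3 lines, and all 3 lay far above the MEFs. The visceral endoderm list held 21 genes with values, of which 17 lay below 1 FPKM in every MEF library and 8 in every passage 30 library. Of its 13 tested genes 11 rose and none fell, a direction largely set by the level needed for a test. Cited1, a transcriptional co-regulator, rose by 6.90 ± 0.32 to 237, 208 and 238 FPKM. Ihh, the hedgehog ligand of the visceral endoderm, rose to 43.8, 31.6 and 30.7 FPKM, with MEFs at 0, 0 and 0.359 FPKM. Apoe, an apolipoprotein, rose from 30.3, 24.3 and 20.99 to 301, 202 and 263 FPKM. Of 7 tested hepatic genes 4 rose (Onecut1, Tbx3, Prox1 and Hnf4a) and 1 fell. Hnf4a, a nuclear receptor of visceral endoderm and liver, rose from 0.0907, 0 and 0 to 1.49, 0.551 and 1.29 FPKM (1.01 ± 0.22, adjusted p = 0.0028). The secreted proteins Ttr, Afp and Alb lay below the level needed for a test, with highest passage 30 values of 0.687, 0.0416 and 0.0433 FPKM.

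The parietal list divided. Of its 20 genes 13 rose and 5 fell. Stra6, the membrane receptor for retinol-binding protein, rose from 0.700, 0.0586 and 0.482 to 154, 160.4 and 138 FPKM (6.77 ± 0.16, adjusted p = 3.2e-09), and Pth1r, the receptor for parathyroid hormone-related protein, from 3.79, 2.82 and 3.61 to 137, 189 and 239 FPKM. Srgn, the proteoglycan serglycin, also rose, with 5.59, 1.89 and 5.65 FPKM in MEFs and 139, 494 and 338 FPKM in the lines. Every passage 30 value of these 3 genes exceeded every MEF value. Plat, tissue plasminogen activator, and Nid1, a linker of laminin and collagen IV, fell (log2 difference -2.93 and -2.29). Of 7 tested genes of the definitive endoderm list, which shares Sox17 and Foxa2 with the XEN markers, 6 rose and none fell (median 3.13). A fall was hardly possible there, as 9 of the 10 genes of the list with values lay below 1 FPKM in every MEF library. Its member Cxcr4, a chemokine receptor, was below the testing level, with 0, 0.0995 and 0 FPKM in MEFs and 0.919, 0 and 0.340 FPKM at passage 30. Trophoblast genes showed 4 rises of 7 tested, of which Cdx2 stayed low at 3.13, 2.81 and 3.85 FPKM, with every MEF library listed at 0.

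The list for pluripotent cells named 25 genes, of which 17 had values and 12 lay below 1 FPKM in every MEF library. Of its 16 tested genes 14 rose, with a median log2 difference of 2.58, 1 fell and 1 did not pass. The list shares Epcam with the epithelial list and Sall4 with the XEN markers, and both are among its largest rises. The study detected neither Oct4 nor Nanog in ciXEN cells by qPCR or staining, and judged that the cells were not yet pluripotent. L1td1, an RNA-binding protein, rose from 0.768, 0 and 0.986 to 236, 147 and 161 FPKM, Lin28a, which blocks maturation of let-7 microRNAs, from 0.0435, 0 and 0.164 to 42.4, 70.7 and 45.8 FPKM, and Klf4, a zinc finger factor, from 25.97, 10.9 and 17.5 to 166, 88.7 and 121 FPKM. Sox2 was at 15.4, 7.28 and 9.61 FPKM, highest in line 1-1 and above every MEF value (0.0641, 0.0214 and 0.0448 FPKM). Klf2, a related zinc finger factor, was the gene that fell, from 15.1, 6.08 and 11.6 to 0.575, 0.528 and 0.117 FPKM.

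The sets of transcription factors exchanged. Of 46 mesenchymal transcription factors 37 fell, 3 rose and 6 did not pass (median -2.18), and of 33 endodermal and epithelial factors 27 rose, 1 fell and 5 did not pass (median 2.09). By level, 27 of the 35 endodermal and epithelial factors with values lay below 1 FPKM in every MEF library. Likewise, 21 of the 47 mesenchymal factors with values lay below 1 FPKM in every passage 30 library. The direction of such genes was largely set by the level needed for a test. Among the mesenchymal factors, 13 were at 5 FPKM or more in every MEF library and below 1 FPKM in every passage 30 library. They included Prrx1, Prrx2, Twist2, Tbx5, Tbx18, Runx2, Osr1, Meox1, Meox2, Hic1, Scx and Fosl1. Prrx1, a homeobox factor of limb and body wall mesenchyme, lay at 87.8, 148 and 175 FPKM in MEFs and 0.0910, 0.0997 and 0.215 FPKM at passage 30 (-6.87 ± 0.23, adjusted p = 1.5e-08). Osr1, a zinc finger factor of intermediate and lateral mesoderm, went from 47.8, 94.04 and 103 to 0.176, 0.155 and 0.0666 FPKM, and Meox1, a homeobox factor of the somites, from 69.4, 37.7 and 82.1 to 0.0374, 0 and 0.0596 FPKM. Prrx2 and Twist2 were listed at 0 in all 3 lines, where the MEFs had 28.1, 17.9 and 31.5 and 6.69, 11.7 and 7.81 FPKM.

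The opposite pattern was found for 9 factors, among them Sox17, Sox7, Foxa2, Sall4, Elf3, Eomes, Sox2 and Lin28a, the last an RNA-binding protein that the list holds with them. Foxa2, a forkhead pioneer factor, rose from 0.494, 0 and 0.131 to 67.1, 70.8 and 69.7 FPKM and varied little between lines. Elf3, an ETS factor of epithelia, rose from 0.978, 0 and 0.870 to 79.98, 109 and 61.8 FPKM. Not all factors followed their group. Snai1, a repressor of E-cadherin that the parietal endoderm also uses, rose from 29.5, 27.01 and 25.1 to 57.1, 81.9 and 50.9 FPKM (1.16 ± 0.16, adjusted p = 0.00015), and its paralogue Snai2 fell from 129, 116 and 178 to 5.76, 3.30 and 5.68 FPKM. Msx2 and Foxd1 also rose (2.46 and 1.59), and Irx3, a homeobox factor, was the 1 endodermal and epithelial factor that fell, from 11.5, 9.92 and 15.7 to 1.11, 1.20 and 0.660 FPKM, with 2 such factors falling when line 2-1 was left out.

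The interstitial matrix programme was lost almost whole. Of 43 tested genes for fibrillar collagens, their partners and crosslinking enzymes 41 fell, with a median log2 difference of -6.06. The summed level of these genes was 12989 to 14259 FPKM in MEFs and 759.7 to 1083 FPKM at passage 30. Col1a1, the alpha 1 chain of type I collagen (chr11:94936224-94953042, plus strand), fell from 1054, 1255 and 1192 to 1.69, 1.66 and 1.64 FPKM (-8.77 ± 0.09, adjusted p = 5.6e-11). Bgn, the proteoglycan biglycan, fell from 1284, 1274 and 1415 to 2.18, 2.30 and 2.35 FPKM, and Lox, the lysyl oxidase that crosslinks collagen and elastin, from 913, 898 and 936 to 1.52, 2.05 and 1.07 FPKM. In each of these the 3 lines lay within about 1 FPKM of each other. Fn1, fibronectin, kept a residual level, at 62.9, 69.9 and 42.04 FPKM against 787, 989 and 900.3 FPKM. Col6a1, a chain of the microfibrillar type VI collagen, differed widely between lines, at 58.5, 22.8 and 6.65 FPKM against 253, 314 and 284 FPKM. Fbln1, the glycoprotein fibulin-1, was the 1 gene of the list that rose, from 29.00, 40.6 and 40.6 to 82.9, 90.4 and 87.1 FPKM (1.23 ± 0.13, adjusted p = 2.5e-05). Loxl2, another lysyl oxidase, was the 1 that did not pass (-0.25 ± 0.36, adjusted p = 0.56).

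Basement membrane genes changed chain by chain. Of 23 tested 11 rose and 8 fell, with 6 rises without MEF replicates 1 and 3. The 3 chains that make up the laminin of early embryos all rose. Lama1 went from 1.54, 0.661 and 1.62 to 183, 351 and 369 FPKM, Lamb1 from 67.5, 76.2 and 80.1 to 348, 434 and 398 FPKM and Lamc1 from 56.3, 60.3 and 58.3 to 143, 326 and 338 FPKM, so the alpha chain changed most (7.02 ± 0.27, against 2.38 ± 0.10 and 2.09 ± 0.29). Line 1-1 was the lowest of the lines for each of these 3 genes. The alpha chains of mesenchymal and vascular laminins fell instead, Lama2 with a log2 difference of -3.63 and Lama4 with one of -4.46, from 54.2, 55.2 and 60.7 to 0.113, 2.20 and 3.99 FPKM. Col4a2 rose from 89.4, 122 and 84.7 to 368, 377 and 493 FPKM, whereas its neighbour and partner Col4a1 gave 52.6, 506 and 648 FPKM in the lines and 69.00, 99.5 and 43.98 FPKM in MEFs. Line 1-1 was thus within the MEF range for Col4a1 and the test did not pass (adjusted p = 0.13). Without line 1-1 the difference was 3.07 with an adjusted p of 0.014. Agrn, the heparan sulphate proteoglycan agrin, rose from 15.99, 18.2 and 18.2 to 73.4, 59.7 and 78.7 FPKM, and Smoc2, a calcium-binding matrix protein, fell (log2 difference -5.04).

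Of 22 contractile genes 21 fell (median -3.07) and 1 rose. Acta2, smooth muscle actin, fell from 801, 1062 and 642 to 0.860, 1.00 and 0.695 FPKM (-8.79 ± 0.19, adjusted p = 1.9e-09), and Tagln, the actin-binding protein transgelin, from 443, 489.8 and 362 to 0.676, 0.507 and 0.631 FPKM. Actg2, the enteric smooth muscle actin, was listed at 0 in all 3 lines and at 85.4, 149 and 53.3 FPKM in MEFs. Csrp2, a LIM domain protein of smooth muscle, was the exception and rose from 57.8, 56.8 and 47.3 to 158, 235 and 211 FPKM. Fibroblast-wide components fell too. Vcl, the focal adhesion protein vinculin, went from 155, 183 and 170.1 to 19.5, 16.6 and 13.3 FPKM (-3.30 ± 0.13), and Cnn2, a calponin, from 163, 184 and 166 to 13.2, 15.6 and 10.2 FPKM (-3.64 ± 0.15). Myl9, the regulatory light chain of non-muscle and smooth muscle myosin, went from 293, 292 and 229.8 to 17.9, 16.3 and 7.88 FPKM (-4.25 ± 0.41). Srf, the serum response factor, whose CArG box is a known element of such genes, fell least of those shown here, from 10.9, 12.2 and 10.8 to 7.80, 9.14 and 8.21 FPKM (-0.39 ± 0.12, adjusted p = 0.013, and 0.051 without MEF replicate 2).

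Promoter sequences of these genes are shown because the list fell together. RefSeq promoters of GRCm38.p6, each running from 250 bases before to 50 bases after the annotated start, were held for 18 of the 22 contractile genes. A CArG box was found in 4 of them (22.2%), against 1.38% of the 9753 tested genes with a promoter and 1.57% of all 27025 promoters. The 4 were Myl9 (chr2:156775214-156775513, plus strand), Vcl (chr14:20929148-20929447, plus strand), Cnn2 (chr10:79988350-79988649, plus strand) and Srf itself (chr17:46556113-46556412, minus strand). The letters GGAATG, bound by TEAD factors, were found in 8 of the 18 (44.4%), against 11.8% of the tested genes. Promoters were held for 77 genes that rose at least 16-fold and 175 that fell as far. The CArG box was in 2.6% of the former and 1.71% of the latter. The TEAD letters were in 22.1% and 17.1%, so neither motif was more frequent on the falling side. Both strands were searched, a match is a description of the letters and was not tested as a site, and the capitals below mark the CArG box.
Myl9: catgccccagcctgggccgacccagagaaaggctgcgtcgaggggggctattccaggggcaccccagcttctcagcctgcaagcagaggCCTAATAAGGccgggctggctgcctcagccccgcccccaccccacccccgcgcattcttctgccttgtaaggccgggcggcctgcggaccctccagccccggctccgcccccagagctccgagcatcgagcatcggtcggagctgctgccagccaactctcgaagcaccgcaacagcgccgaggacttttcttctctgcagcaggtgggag
Vcl: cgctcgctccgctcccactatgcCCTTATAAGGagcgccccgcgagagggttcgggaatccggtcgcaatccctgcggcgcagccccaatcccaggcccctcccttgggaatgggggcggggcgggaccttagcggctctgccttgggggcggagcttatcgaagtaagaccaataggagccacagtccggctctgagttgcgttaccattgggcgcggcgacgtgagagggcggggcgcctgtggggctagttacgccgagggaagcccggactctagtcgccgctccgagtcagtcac
Cnn2: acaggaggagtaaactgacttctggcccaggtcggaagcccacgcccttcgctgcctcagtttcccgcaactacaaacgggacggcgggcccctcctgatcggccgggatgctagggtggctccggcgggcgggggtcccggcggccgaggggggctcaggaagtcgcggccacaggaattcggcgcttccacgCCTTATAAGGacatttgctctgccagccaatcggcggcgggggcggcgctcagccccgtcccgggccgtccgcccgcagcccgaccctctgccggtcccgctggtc
Srf: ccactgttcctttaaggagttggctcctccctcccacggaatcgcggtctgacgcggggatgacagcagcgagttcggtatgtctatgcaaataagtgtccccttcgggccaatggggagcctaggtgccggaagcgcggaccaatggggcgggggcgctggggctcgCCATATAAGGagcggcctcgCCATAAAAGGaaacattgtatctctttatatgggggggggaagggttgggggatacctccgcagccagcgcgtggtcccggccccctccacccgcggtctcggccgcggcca
The box began 161 bases before the start in Myl9, 227 in Vcl and 56 in Cnn2, and Srf had 2, beginning 82 and 62 bases before its start. No CArG box was found in the 27 fibrillar matrix promoters held, of a list that fell further (median -6.06).

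Epithelial genes rose, with gaps. Of 39 genes for junctions and keratins 28 rose, 2 fell and 9 did not pass (median 2.61). Krt8 and Krt18, the keratin pair of simple epithelia, went from 6.38, 0.0993 and 4.16 to 430.1, 477 and 356 FPKM and from 5.30, 1.01 and 4.28 to 432, 394 and 330.4 FPKM. Cdh1, E-cadherin, rose from 0.903, 0 and 0.749 to 40.4, 14.3 and 22.5 FPKM, and Epcam, an epithelial adhesion molecule, from 1.72, 0 and 2.06 to 292, 142 and 200.1 FPKM. Line 1-1 had the highest Cdh1 and Epcam values of the 3 lines. Lsr, a protein of tricellular junctions, rose from 1.01, 0.493 and 0.528 to 71.6, 69.1 and 67.2 FPKM (5.40 ± 0.13, adjusted p = 3.0e-09). The gaps were Cldn4, a tight junction claudin at 0.144, 0 and 0.206 FPKM in MEFs and 0.339, 0.0502 and 0.129 FPKM at passage 30 (adjusted p = 0.92), and Jup, the junction protein plakoglobin, which fell (-1.47). The other fall, of the claudin Cldn12 (-0.51, adjusted p = 0.025), was lost without MEF replicate 2, MEF replicate 3, line 1-1 or line 2-1 (adjusted p = 0.063, 0.070, 0.082 and 0.063). Among 10 regulators and markers of the epithelial to mesenchymal transition 9 fell, Cdh11, a mesenchymal cadherin, from 195, 181 and 201 to 0.169, 0.275 and 0.260 FPKM. Vim, the intermediate filament vimentin, fell from 895, 731 and 878 to 309.8, 323 and 304 FPKM, with no overlap. The promoter of Krt8 (chr15:102004293-102004592, minus strand) is shown as that of the keratin with the largest rise. It holds the GATA-type letters AGATAA, in capitals, 239 bases before the start. These letters were found in 5.9% of the tested promoters and in 11.4% of all 27025. They were in 7.79% of the 77 promoters held for genes that rose at least 16-fold and in 5.71% of the 175 for genes that fell as far.
Krt8: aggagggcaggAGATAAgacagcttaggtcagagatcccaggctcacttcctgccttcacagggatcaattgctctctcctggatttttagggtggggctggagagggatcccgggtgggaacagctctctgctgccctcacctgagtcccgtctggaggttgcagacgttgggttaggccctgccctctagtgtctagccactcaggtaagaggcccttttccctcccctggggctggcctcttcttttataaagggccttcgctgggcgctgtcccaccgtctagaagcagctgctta

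**Figure D3:**
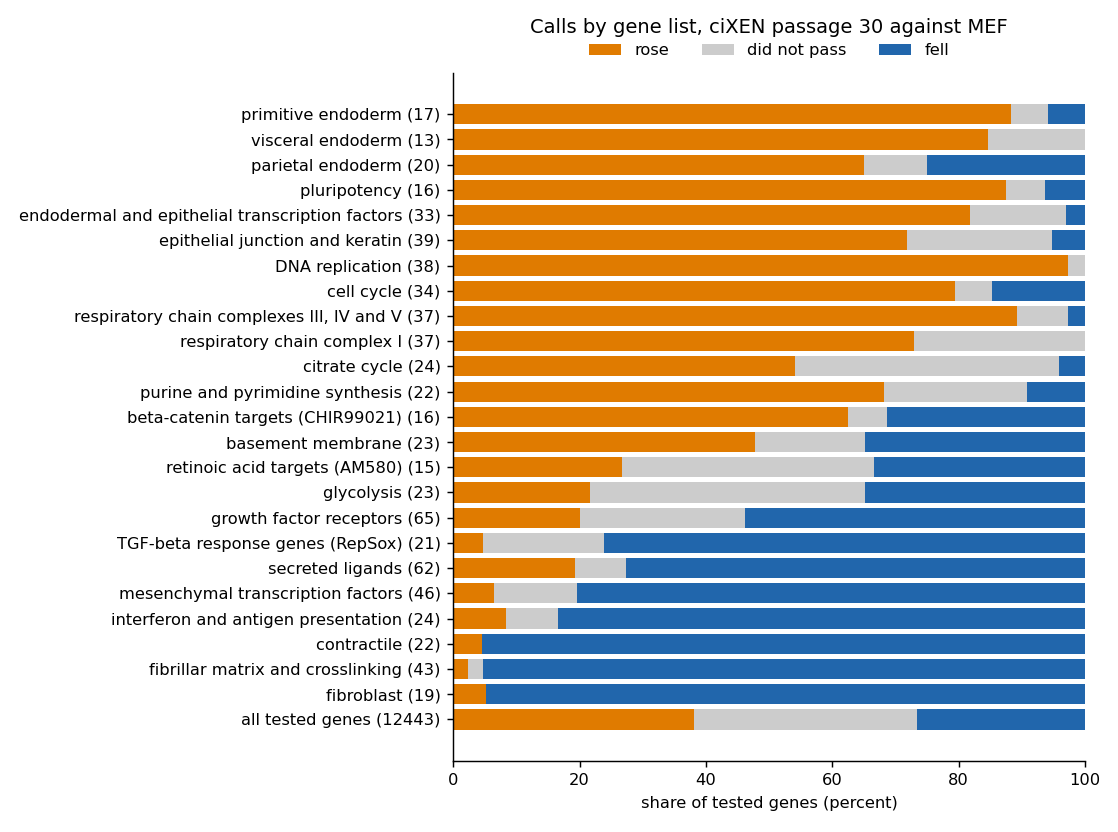
Share of the tested members of 24 gene lists that rose (orange), fell (blue) or did not pass (grey) at passage 30 against MEFs, in percent, with the number tested beside each list and the same shares for all 12443 genes in the bottom bar. The interstitial matrix, contractile and fibroblast bars are almost all blue, and the DNA replication bar almost all orange.

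Each chemical in the ciXEN medium acts on a known pathway, and the response genes of these pathways did not all point one way. Of 15 retinoic acid response genes 4 rose and 5 fell (median -0.15), beside 38.2% and 26.6% of all tested genes. Cyp26a1, the enzyme that degrades retinoic acid and a direct target of its receptors (chr19:37697798-37701536, plus strand), had 1.41, 0 and 1.88 FPKM in MEFs and 495, 294 and 575 FPKM in the lines (7.84 ± 0.40, adjusted p = 2.3e-07). Components of the pathway fell at the same time. Rarg, the gamma receptor, went from 45.6, 43.3 and 46.4 to 0.367, 0.535 and 0.353 FPKM and Crabp1, a cytoplasmic carrier of retinoic acid, from 459.9, 435 and 578 to 7.92, 1.56 and 4.43 FPKM. Of 16 β-catenin target genes 10 rose and 5 fell. Axin2, a feedback inhibitor of the pathway, rose from 0.558, 0.301 and 0.650 to 28.8, 19.4 and 28.96 FPKM (4.14 ± 0.17, adjusted p = 6.2e-08), and the nuclear partners Lef1 and Tcf7 rose by 2.59 and 2.80. Lgr5, the R-spondin receptor, fell from 14.9, 4.02 and 18.6 to 1.04, 0.290 and 0.423 FPKM. With MEF replicates 1 and 3 left out, 1 of the 5 falls of this list still passed.

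The TGF-β response genes were the most one-sided of these lists. Of 21 tested 16 fell, with a median log2 difference of -2.76. The largest falls were those of Acta2, Col1a1, Tagln and Thbs1. Acta2 and Tagln are also on the contractile list and Col1a1 on the fibrillar matrix list. This list is thus not independent of those lists, which fell as described above. Tgfbi, a matrix protein named for its induction by TGF-β, fell from 124, 169.5 and 162 to 0.0604, 0.0608 and 0 FPKM (-7.19 ± 0.14, adjusted p = 1.5e-09). Ccn2, connective tissue growth factor, fell from 286, 281 and 185 to 1.39, 2.92 and 1.02 FPKM. Every passage 30 value of both genes lay below every MEF value. The rise in the list was Id2, at 19.99, 11.2 and 26.3 FPKM in MEFs and 75.6, 23.8 and 31.7 FPKM in the lines (adjusted p = 0.046), a call that was lost without MEF replicate 1, MEF replicate 2, line 1-1 or line 3-3 (adjusted p = 0.080, 0.17, 0.14 and 0.056), or any library of passage 5 (0.058 to 0.061). Of 16 FGF response genes 11 fell (median -1.52). The ciXEN medium alone held bFGF, and its part in these levels was not tested. Egr1, an immediate early zinc finger gene, went from 71.6, 42.8 and 28.9 to 0.186, 0.0965 and 0.0947 FPKM, and Etv5 and Dusp6, targets of the ERK pathway, fell (log2 difference -2.37 and -1.74). Without MEF replicates 1 and 3, 6 of the 11 falls passed. Of 18 cAMP response genes 9 fell and 4 rose (1 without MEF replicates 1 and 3), among the falls the nuclear receptor Nr4a1 (-3.01).

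The enzymes that the inhibitors bind were mostly present in both cell types. Of 19 such enzymes and partners 6 rose and 7 fell, and Hdac1, Kdm1a, Gsk3b and Tgfbr1 did not pass. Kdm1a, which encodes LSD1, lay at 24.05, 27.2 and 24.96 FPKM in MEFs and 30.8, 26.6 and 31.6 FPKM at passage 30. Tgfbr2, the type II TGF-β receptor, fell from 31.1, 39.5 and 37.3 to 6.18, 6.98 and 12.6 FPKM. FGF receptors moved in opposite directions. Fgfr1 fell from 55.99, 57.5 and 64.2 to 8.51, 7.93 and 5.29 FPKM and Fgfr4 rose from 0.188, 0 and 0.155 to 35.7, 37.4 and 63.4 FPKM (5.34 ± 0.22, adjusted p = 6.1e-08).

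The mRNAs of secreted signals mostly fell. By level, 43 of the 73 ligands with values lay below 1 FPKM in every passage 30 library. The direction of such genes was largely set by the level needed for a test. Of 62 tested ligands 45 fell and 12 rose (median -2.23), of 25 ligand antagonists 15 fell and 6 rose (3 without MEF replicates 1 and 3), and of 65 growth factor receptors 35 fell and 13 rose. Cxcl12, the ligand of CXCR4, fell from 67.5, 73.95 and 64.2 to 0.0313, 0.0482 and 0.0552 FPKM (-6.05 ± 0.16, adjusted p = 4.8e-09). Inhba, the activin A subunit, Igf1 and Fgf7, a growth factor that fibroblasts supply to epithelia, fell (log2 difference -5.78, -5.32 and -5.44). The ligands that rose included Mdk, midkine, the other member of the family of Ptn, which went from 40.6, 31.4 and 52.4 to 273, 365 and 347 FPKM (2.97 ± 0.22) while Ptn fell. Fgf3, Bmp2 and Wnt11 also rose (4.37, 3.71 and 3.39). On the receptor side Kit, the stem cell factor receptor, rose from 0.179, 0.0345 and 0.376 to 99.1, 62.1 and 104 FPKM, and Flt1, a receptor for vascular endothelial growth factor, from 13.6, 19.99 and 13.96 to 217, 253 and 139 FPKM. Axl, a receptor tyrosine kinase of mesenchymal cells, fell from 72.5, 92.9 and 64.5 to 0.134, 0.0633 and 0.250 FPKM.

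The study compared energy metabolism of the cell types, and the mRNA of its enzymes moved by pathway. Respiratory chain genes rose with small steps: 27 of 37 genes of complex I (median 0.55) and 33 of 37 of complexes III, IV and V (median 0.71) rose, and 13 of 24 citrate cycle genes. Cyc1, cytochrome c1, rose from 25.3, 25.9 and 24.1 to 60.03, 71.6 and 79.4 FPKM (1.44 ± 0.11, adjusted p = 4.1e-06). Glycolysis had no common direction, with 5 rises, 8 falls and 10 genes that did not pass (median -0.12). Hk2, the hexokinase of the first step, rose from 7.69, 10.03 and 7.42 to 45.7, 37.5 and 30.9 FPKM (2.05 ± 0.16, adjusted p = 3.6e-06). Ldha, a lactate dehydrogenase subunit, fell from 175, 153 and 148 to 91.4, 119.8 and 90.3 FPKM (-0.66 ± 0.19, adjusted p = 0.012, and 0.16 without MEF replicates 1 and 3). Slc2a1, the glucose transporter GLUT1, rose from 20.8, 27.1 and 17.6 to 43.8, 41.4 and 27.7 FPKM (0.75 ± 0.21, adjusted p = 0.01, and 0.27 without those 2 libraries). Of the phosphofructokinases Pfkl did not pass (-0.12 ± 0.15), while Pfkm and Pfkp fell (log2 difference -0.68 and -0.58). The calls for Pfkm and Pfkp were each lost without MEF replicate 1 (adjusted p = 0.061 and 0.087) or MEF replicate 3 (0.052 and 0.062), Pfkm also without line 3-3 (0.061) and Pfkp without line 1-1 (0.054) or line 2-1 (0.088). The number of glycolytic falls was 5 without MEF replicate 1, 4 without MEF replicate 3 and 2 without both. The lactate transporters exchanged, Slc16a1 rising from 12.8, 12.4 and 11.1 to 78.8, 69.8 and 70.2 FPKM (2.495 ± 0.09, adjusted p = 3.3e-08) and Slc16a3 falling from 21.4, 17.9 and 12.4 to 1.80, 6.52 and 1.25 FPKM.

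Of 20 genes of serine, glycine and one-carbon metabolism 9 rose and 4 fell, the latter 2 without MEF replicate 3 or without line 1-1. These counts lie near the shares of all tested genes (38.2% and 26.6%), and the median of 0.23 lies near that of all genes (0.17). Tdh, threonine dehydrogenase, which feeds glycine and acetyl-CoA in mouse embryonic stem cells, rose from 0, 0 and 0.191 to 45.4, 72.9 and 87.9 FPKM (5.99 ± 0.40, adjusted p = 1.4e-06). Gldc, the glycine decarboxylase of the same route, rose from 0.114, 0.0474 and 0.185 to 49.96, 25.2 and 53.7 FPKM (5.23 ± 0.32). Mthfd2, a mitochondrial folate enzyme, fell from 97.1, 101 and 101 to 14.2, 26.4 and 43.5 FPKM and Shmt1, the cytosolic serine hydroxymethyltransferase, rose by 2.26. Of 22 genes of purine and pyrimidine synthesis 15 rose (9 without MEF replicates 1 and 3) and 2 fell. Cholesterol synthesis had few calls, 2 rises and 5 falls among 22 genes, with 4 rises when line 3-3 and 3 falls when MEF replicate 3 was left out, and no fall without MEF replicates 1 and 3.

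Of the DNA replication genes 37 of 38 rose, with a median log2 difference of 1.31. Pold1, the catalytic subunit of polymerase delta, was the 1 that did not pass. Mybl2, a transcription factor of the late G1 and S phases, rose from 8.07, 8.04 and 5.47 to 112, 121 and 106 FPKM (3.82 ± 0.15, adjusted p = 5.4e-08), and Gmnn, which encodes geminin, an inhibitor of origin relicensing, from 18.9, 16.2 and 13.9 to 81.5, 90.6 and 88.6 FPKM. Of 34 cell cycle genes 27 rose (median 1.08). Mki67, the proliferation marker, rose from 62.3, 56.2 and 54.4 to 112, 106 and 94.03 FPKM, a smaller step of 0.84 ± 0.09. The D-type cyclins went the other way, Ccnd1 from 57.4, 30.1 and 45.8 to 9.99, 8.63 and 18.6 FPKM and Ccnd2 with a log2 difference of -1.64 (adjusted p = 0.054 and 0.069 without MEF replicates 1 and 3). Cdkn2b, an inhibitor of the D-type cyclin kinases, fell from 43.4, 61.3 and 51.9 to 0.915, 1.41 and 0.950 FPKM (-4.66 ± 0.22, adjusted p = 1.7e-07), and Cdkn1a, a CDK inhibitor under p53 control, from 103, 81.98 and 65.8 to 24.1, 20.8 and 41.7 FPKM. Of 23 CDK inhibitors and p53 targets 10 fell and 6 rose, the latter 3 without MEF replicates 1 and 3.

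Of 23 genes of DNA methylation and chromatin 15 rose and 3 fell. The largest rise was that of Chd7, a chromatin remodeller, from 0.673, 0.254 and 0.186 to 56.8, 48.2 and 65.4 FPKM (5.40 ± 0.17, adjusted p = 1.1e-08). Dnmt3b, a de novo DNA methyltransferase, rose from 1.30, 0.890 and 0.900 to 14.3, 14.8 and 20.7 FPKM, and Jarid2, a partner of Polycomb complex PRC2, from 3.32, 3.16 and 4.38 to 24.2, 20.9 and 21.3 FPKM. The 3 genes that fell were Kdm5b, Kdm6b and Tet2 (-0.69, -0.51 and -0.33), and 1 of them was still called when any 1 MEF library, passage 5 of line 1-1 or passage 30 of line 3-3 was left out, and none without MEF replicates 1 and 3. Among imprinted genes 11 of 21 fell and 6 rose. Peg10, a retrotransposon-derived placental gene, rose from 13.4, 7.95 and 16.5 to 718, 762 and 708 FPKM (5.80 ± 0.20), while Mest and Dlk1, both expressed from the paternal allele in embryonic mesoderm, fell (log2 difference -4.55 and -3.91). All 4 tested genes of the germline and X-linked homeobox list rose, Rhox5, a homeobox gene of the placenta and testis, from 5.66, 0.721 and 4.74 to 980.2, 837 and 955 FPKM. Of the 8 genes of this list with values, 5 lay below 1 FPKM in every MEF library and 4 in every passage 30 library. Genes that low in MEFs were tested only through their ciXEN values, so their direction was largely set in advance. The calls of this list were 2 without MEF replicates 1 and 3.

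Interferon-induced and antigen presentation genes were lower in the ciXEN lines, 20 of 24 having fallen (median -1.98). Isg15, a ubiquitin-like interferon product, went from 113, 38.4 and 69.3 to 0.110, 0.551 and 0.352 FPKM (-5.68 ± 0.71, adjusted p = 8.8e-05), and B2m, the light chain of class I molecules, from 429.7, 373 and 397 to 171, 165 and 128 FPKM. H2-D1, a class I heavy chain, rose against the list, from 27.6, 25.9 and 21.8 to 81.9, 96.1 and 67.6 FPKM (1.66 ± 0.15), as did H2-K1 (1.29, adjusted p = 0.0025, and 0.083 without MEF replicates 1 and 3), class I genes whose near-identical sequences can share reads. Markers of macrophages moved alongside. Of 15 tested 14 fell, their summed level was 129.8 to 218.5 FPKM in MEFs and 3.70 to 3.90 FPKM at passage 30, and Fcer1g, C1qa, C1qb, C1qc, Aif1, Itgam, Cd52 and Tyrobp were listed at 0 in every passage 30 library. Lyz2, lysozyme of myeloid cells, fell from 121, 60.97 and 94.9 to 0.127, 0.138 and 0.135 FPKM. By level, 14 of the 16 macrophage genes with values lay below 1 FPKM in every passage 30 library, as did 14 of 27 on the interferon list. Such genes were tested largely through their MEF values, so their direction was largely set in advance. The part of macrophages in the interferon list was not tested. Markers of skeletal and cardiac muscle were low in both groups, summing to 9.37 to 16.8 FPKM in MEFs and 0.182 to 2.68 FPKM at passage 30.

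Passage 30 differed from passage 5 of the same lines at far fewer genes. By the test of passage 30 minus passage 5 in the same fit, 383 genes were higher (3.08%) and 698 lower (5.61%) at passage 30, and 3105 had an unadjusted p below 0.05. The libraries did not overlap at 28.8% of the genes. These counts were less firm than those against MEFs. Limited to the 6 ciXEN libraries with the line as a block, limma called 0 genes, with 2538 at an unadjusted p below 0.05. With the block in the fit of 9 libraries it called 275 higher and 538 lower, 765 of them among the 1081. Scaling the libraries to equal medians gave 785 higher and 563 lower, and quantile normalisation 459 and 527, so the excess of lower genes depended on the scaling. Leaving out passage 5 of line 1-1 gave 145 higher and 298 lower, leaving out passage 5 of line 2-1 gave 191 and 396, and leaving out passage 30 of line 2-1 gave 246 and 459.

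The primitive endoderm list had 5 genes higher and 1 lower at passage 30 than at passage 5, of 17 tested. The visceral endoderm list had 5 higher and none lower of 13, and the definitive endoderm list none higher and 1 lower of 7. Among the 33 endodermal and epithelial factors 4 were higher and 6 lower. Endodermal genes with a higher level at passage 30 included Dab2, at 16.2, 14.9 and 16.7 FPKM at passage 5 and 57.6, 31.7 and 57.8 FPKM at passage 30 (log2 difference 1.51 ± 0.20, adjusted p = 0.0041). Dab2 was thus below its MEF level at passage 5 and above it at passage 30. Rbp4, the plasma retinol carrier, had 0.839, 0.535 and 0.120 FPKM at passage 5 and 5.03, 12.6 and 8.98 FPKM at passage 30 (2.67 ± 0.32, adjusted p = 0.0027), with MEFs between at 1.74, 2.496 and 3.57 FPKM. Apoe, Gata6 and Cubn were also higher (1.08, 0.81 and 2.14), and Tdh went from 6.23, 5.39 and 18.4 to 45.4, 72.9 and 87.9 FPKM between the passages (2.80 ± 0.40, adjusted p = 0.0049). Of the 39 epithelial genes none was higher and 13 were lower at passage 30. Cldn4 had 25.3, 29.1 and 5.51 FPKM at passage 5, above all of its passage 30 values given earlier (-3.89 ± 0.49, adjusted p = 0.0031), and Tjp3, a tight junction scaffold, and Esrp2, an epithelial splicing regulator, fell (log2 difference -2.34 and -1.17). The epithelial factors Grhl2 and Ovol2 fell (log2 difference -2.34 and -1.87), with Grhl2 at 16.8, 12.00 and 11.3 FPKM at passage 5 and 1.67, 0.921 and 3.27 FPKM at passage 30. Gata2 and Gata3, factors of trophoblast, went from 24.9, 33.7 and 13.6 to 2.22, 0.944 and 3.88 FPKM and from 7.90, 9.78 and 5.86 to 1.53, 0.875 and 1.26 FPKM, against 2.27, 3.22 and 1.62 and 1.82, 1.72 and 1.54 FPKM in MEFs (log2 differences between the passages -2.91 and -1.98). Vim was higher again at passage 30 (128, 77.9 and 102 FPKM at passage 5, 1.62 ± 0.16, adjusted p = 0.0012). Anxa1, the phospholipid-binding annexin A1, fell at both steps, from 293, 315 and 256 FPKM in MEFs through 46.4, 28.2 and 25.9 FPKM at passage 5 to 2.29, 2.47 and 1.09 FPKM at passage 30 (-3.53 ± 0.25, adjusted p = 0.00055).

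**Figure D4:**
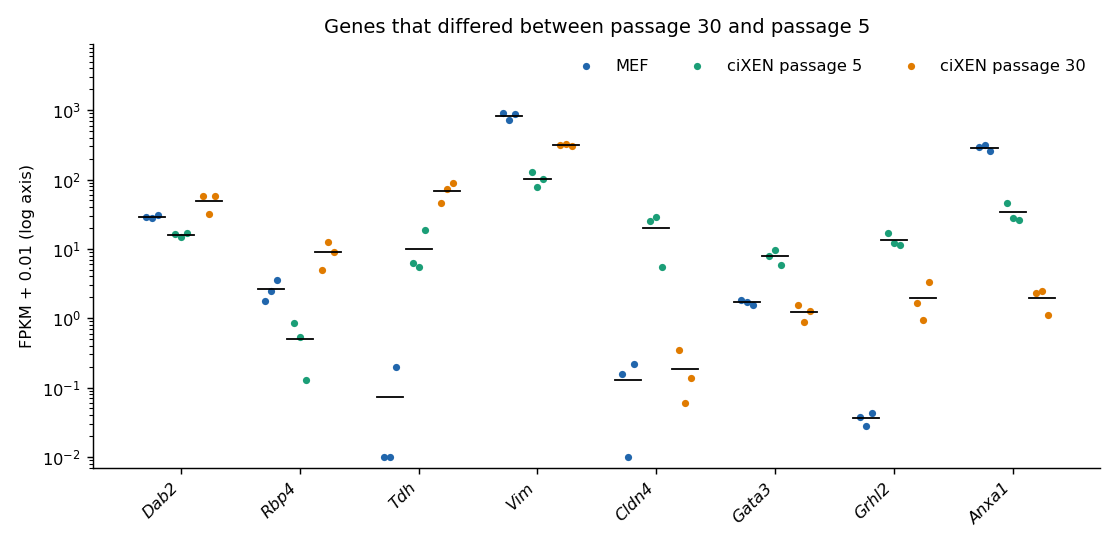
FPKM + 0.01 on a log axis for 8 genes that differed between passage 30 and passage 5, with 1 point per library, blue for MEFs, green for passage 5 and orange for passage 30, and a bar at each group's mean. Dab2, Rbp4, Tdh and Vim lie higher at passage 30 than at passage 5, and Cldn4, Gata3, Grhl2 and Anxa1 lower.

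The 3 lines at passage 30 were not alike at every gene. Among genes that averaged 5 FPKM or more at passage 30, the widest ranges between lines included Cldn6, a claudin of embryonic epithelia (15.9, 0.469 and 30.04 FPKM), Ifitm3, an interferon-induced membrane protein (26.3, 2.09 and 36.2 FPKM), Spp1, the secreted phosphoprotein osteopontin (2.61, 1.52 and 29.2 FPKM), and Col4a1. Line 2-1 was lowest for Cldn6, Ifitm3 and Spp1, and line 1-1 for Col4a1. The rise of Cldn6 against MEFs (adjusted p = 0.026) was lost when any 1 of MEF replicate 1, 2 or 3, line 1-1 or line 3-3 was left out (0.060, 0.069, 0.063, 0.084 and 0.093). Eif2s3y, a Y-linked translation initiation factor gene, was at 10.5, 12.01 and 10.01 FPKM in MEFs, 34.05, 39.9 and 17.01 FPKM at passage 5 and 0.00816, 0 and 24.1 FPKM at passage 30. The other Y-linked genes tested were likewise highest in line 3-3 at passage 30. Ddx3y, an RNA helicase, was at 0.0683, 0.316 and 6.65 FPKM and Uty, a histone demethylase homologue, at 0, 0.0424 and 3.85 FPKM then, against 7.37, 8.84 and 3.29 and 4.04, 3.48 and 2.23 FPKM at passage 5. Y-linked mRNA was thus near 0 in lines 1-1 and 2-1 at passage 30, present in line 3-3, and present in all 3 lines at passage 5. Of the 4 Y-linked genes 1 fell against MEFs in the test of all 3 lines (Ddx3y, -2.496 ± 0.67, adjusted p = 0.0091), 3 fell with line 3-3 left out, and none was called without MEF replicates 1 and 3 (Ddx3y, adjusted p = 0.082). What lies behind the absent Y-linked mRNA was not tested.

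**Figure D5:**
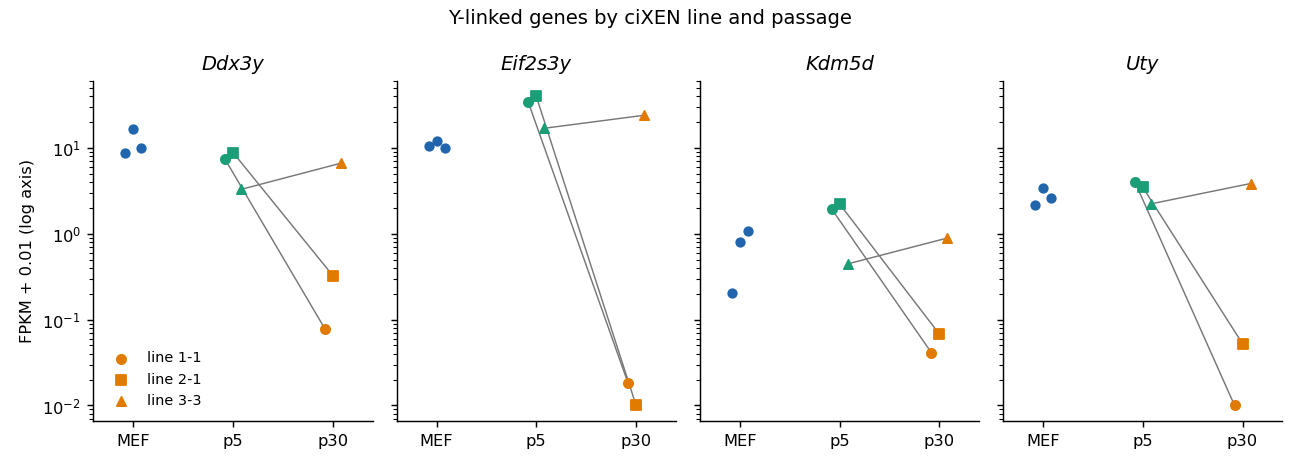
FPKM + 0.01 on a log axis for the 4 Y-linked genes, with 1 point per library: blue for the 3 MEF libraries, green and orange for lines 1-1, 2-1 and 3-3 at passage 5 and passage 30, with lines joining the passages of each ciXEN line. The joined points drop at passage 30 in lines 1-1 and 2-1 and not in line 3-3.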

How the data were processed

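Total RNA of 9 libraries (3 MEF, 3 ciXEN passage 5, 3 ciXEN passage 30) was freed of ribosomal RNA, made into libraries with a stranded KAPA kit and sequenced on a HiSeq machine. The authors deposited FPKM values per Ensembl mouse transcript, 1 column per library. The submitters' processing notes name cutadapt, HISAT2 2.0.5, STAR 2.5.2b, StringTie and the build hg19. That build is human, and the aligner and build behind the deposited FPKM are not given in the sources used here. Of 29599 transcripts 29521 were matched by stable ID to GENCODE annotation of GRCm38, and FPKM was summed over 13787 genes. The 78 unmatched transcripts held 0.158% of all FPKM. The values keep no read counts, so depth and counting error are unknown.

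Genes that averaged 0.5 FPKM or more (12443) were tested with limma 3.58.1 in R 4.3.3 on log2(FPKM + 1), in 1 fit of all 9 libraries with a moderated variance trend, and p-values were adjusted by Benjamini and Hochberg over all of them. Fold changes on this scale understate those of low genes. Tables and figures were made with Python 3.11.15, pandas 2.3.3, numpy 2.4.6 and matplotlib 3.10.9. On simulated data for passage 30 against MEFs, with 50 genes changed at each size among 12443, the fit recovered 36% at a log2 change of 0.58, 60% at 1, 94% at 2 and 96% at 4, and called 12 of 12243 unchanged genes. Far fewer genes were changed there than the 8058 called in the data. The adjusted cut was thus stricter in the simulation, and its recovery rates may not carry over. ciXEN libraries of a number share a line, so passage 30 and passage 5 are paired by line, with correlations of their deviations of -0.0054, 0.014 and 0.071.

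The comparison and the 50 gene lists were chosen with earlier results of these data known. Genes were named by rule: the 10 largest rises and falls whose libraries do not overlap and whose higher mean is at least 5 FPKM, up to 4 leading and 2 opposing called members of each list, the 8 largest changes each way between passages, the 10 most abundant genes of each group, the 8 genes that varied most between lines, the genes the study names, and the factors below 1 FPKM in one group and at 5 or more in the other. Some of these are not reported here, and other list members were chosen after their values were seen. Alternatives were pseudocounts of 0.1 and 0.5, other filters, 3 scalings, no variance trend, a replicate block, only the 2 groups compared, MEF libraries less their trace of ciXEN signal, and leaving out each library or MEF replicates 1 and 3. Promoters (RefSeq, GRCm38.p6) were searched on both strands for 4 motifs, namely AGATAA for GATA factors, the letters GGAATG for TEAD factors, the letters TGANTCA for AP-1 and the CArG box.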

Additional observations from a re-analysis of the deposited data

Results flagged for a closer look

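The values below differed between passage 30 and passage 5 of the ciXEN lines by limma's test of that difference. The sizes are log2 differences, passage 30 minus passage 5. Genes higher at passage 30 in 3 of 3 lines were Tdh (2.80, adjusted p = 0.0049), Rbp4 (2.67, 0.0027), Cubn (2.14, 0.0078), Vim (1.62, 0.0012), Dab2 (1.51, 0.0041), Apoe (1.08, 0.0092) and Gata6 (0.81, 0.017). Genes lower in 3 of 3 lines were Cldn4 (-3.89, 0.0031), Anxa1 (-3.53, 0.00055), Gata2 (-2.91, 0.0039), Tjp3 (-2.34, 0.012), Grhl2 (-2.34, 0.0024), Gata3 (-1.98, 0.0012), Ovol2 (-1.87, 0.0012) and Esrp2 (-1.17, 0.0066). None of these passed when only the 6 ciXEN libraries were fitted with the line as a block.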

How the results depend on the processing

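Passage 30 against MEFs kept its counts within 1.5 times under all alternatives run, from 3454 rises and 2437 falls without MEF replicates 1 and 3 to 4855 and 3662 with no filter on low values. Leaving out 1 library gave 4279 to 4713 rises and 3003 to 3281 falls. MEF and ciXEN libraries share only a number (correlations of their deviations -0.059, 0.0061 and -0.011), and the replicate block gave 4605 rises and 3258 falls. No gene named in the text as called changed direction in either comparison, and of 155 named genes tested against MEFs 20 lost their call under at least 1 alternative. The median of all genes moved between 0.10 (equal sums) and 0.20 over the alternatives.

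The passage 30 against passage 5 counts (383 higher, 698 lower) moved more. Equal medians gave 785 higher, the ciXEN libraries alone 167 higher and 264 lower, and the same with the line as a replicate block 0 and 0. Leaving out 1 library gave 145 to 354 higher and 298 to 690 lower. The cause was not tested. Depth and counting error cannot be estimated from FPKM, and 3 libraries a group limit small differences most.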

Other observations

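Other gene lists moved as well. Of 51 cytosolic ribosomal protein genes 37 rose and none fell, with a median log2 difference of 0.31 beside 0.17 for all tested genes. Rps25 rose from 68.5, 57.4 and 63.4 to 121, 152 and 138 FPKM (1.10 ± 0.10, adjusted p = 1.5e-05). Without MEF replicates 1 and 3 the count was 23. Among 22 stress and heat shock genes 14 fell and 4 rose, with 8 falls without MEF replicates 1 and 3. Nqo1, a quinone reductase of the oxidative stress response, fell from 8.38, 13.1 and 12.1 to 0.0310, 0 and 0.0829 FPKM (-3.53 ± 0.19, adjusted p = 3.4e-07), and Trib3, a pseudokinase induced by amino acid stress, from 24.4, 29.9 and 26.96 to 0.536, 0.835 and 4.94 FPKM. Hspb8, a small heat shock protein, rose against the list, from 21.96, 18.3 and 17.1 to 57.8, 57.9 and 84.9 FPKM.

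Of 6 tested endothelial markers 4 rose and 1 fell. By level, 6 of the 8 markers with values lay below 1 FPKM in every MEF library, so a fall was hardly possible for most. Cdh5, the cadherin of endothelial junctions, rose from 0.0439, 0.0225 and 0.0685 to 7.57, 5.61 and 10.04 FPKM (3.03 ± 0.26, adjusted p = 8.1e-06), and Egfl7, a secreted endothelial protein, from 3.37, 3.29 and 5.11 to 31.8, 32.3 and 29.96 FPKM, while Erg, an endothelial ETS factor, fell from 2.38, 1.10 and 2.55 to 0, 0 and 0.0199 FPKM and Kdr did not pass.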
